A study of Mus musculus with 10 samples.

Results

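The collagens outside cartilage were read here as every gene whose platform symbol has the form Col, digits, a, digits, without the 6 collagen genes typical of cartilage (Col2a1, Col9a1, Col9a2, Col9a3, Col11a1 and Col11a2). This gave 38 of the 19938 genes measured, each read from its probe set of highest mean: 8 fibrillar collagens, 9 collagens of basement membranes and 21 of other types. Col10a1 and Col27a1 fall under the rule although both are also known from cartilage. The tissue was the mouse otic vesicle, the epithelial sac that becomes the inner ear, microdissected with the mesenchyme around it at embryonic day 12.5. Each Affymetrix Mouse Gene ST 1.0 array held the left and right ears of 1 embryo. The 5 mutants were T-Cre conditional Tbx1 knockouts, in which Cre driven from the T (brachyury) gene of early mesoderm deletes the T-box factor gene Tbx1. The 5 controls were T-Cre conditional Tbx1 heterozygotes, so they carry the same Cre and are themselves short of 1 working copy in mesoderm. In the otic epithelium and other cells outside the T-Cre lineage Cre does not delete Tbx1, and the labels do not give the alleles of these cells. All values are log2 signals of the authors' robust multi-array average (RMA), and a log2 difference is mutant minus control.

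Collagens are trimers of chains with repeated glycine triplets, and they make up most of the protein of connective tissue. Fibrillar types I, III and V form the ropes of mesenchyme, dermis and early skeletal condensations. Type IV forms the sheet under every epithelium and around blood vessels, where types XV and XVIII bind to it. Type VI forms beaded filaments near cells, and types XII, XIV and XVI decorate the surface of fibrils. In the developing ear the otic epithelium rests on a basement membrane, and the mesenchyme around it builds loose connective tissue and the cartilage capsule.

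Promoters are shown for 4 members that the results below return to, to show how the bases before the start differ within 1 family. They are Col1a2 and Col3a1 of the fibrillar group, Col18a1 of the basement membrane group, and Col8a2 of the other types. Each is the run of 250 bases before the annotated start, from the RefSeq table of build GRCm38.p6, and lies outside every gene annotated in that build. Capitals mark matches to 3 short promoter motifs on either strand, and adjoining or overlapping matches run together. The first motif is the core of the box bound by the TATA-binding protein, TATAAA. The second is the box bound by the factor NF-Y, CCAAT. The last is the GC box bound by Sp factors, GGGCGG.
Col1a2, chr6:4505368-4505617, + strand: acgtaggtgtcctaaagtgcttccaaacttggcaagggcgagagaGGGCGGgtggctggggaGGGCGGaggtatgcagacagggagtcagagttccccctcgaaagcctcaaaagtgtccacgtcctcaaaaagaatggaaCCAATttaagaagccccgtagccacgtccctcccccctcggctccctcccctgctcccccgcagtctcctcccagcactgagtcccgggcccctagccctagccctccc
Col3a1, chr1:45311288-45311537, + strand: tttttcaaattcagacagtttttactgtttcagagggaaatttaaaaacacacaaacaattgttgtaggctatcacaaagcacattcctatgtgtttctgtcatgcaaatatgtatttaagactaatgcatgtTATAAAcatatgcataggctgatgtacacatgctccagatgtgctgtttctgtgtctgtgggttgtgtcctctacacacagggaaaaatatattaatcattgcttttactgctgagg
Col18a1, chr10:77166531-77166780, - strand: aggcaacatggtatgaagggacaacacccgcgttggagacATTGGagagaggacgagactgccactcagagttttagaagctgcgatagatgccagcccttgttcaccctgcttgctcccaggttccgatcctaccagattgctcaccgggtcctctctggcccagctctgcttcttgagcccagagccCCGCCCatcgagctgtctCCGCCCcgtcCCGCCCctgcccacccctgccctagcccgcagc
Col8a2, chr4:126286544-126286793, + strand: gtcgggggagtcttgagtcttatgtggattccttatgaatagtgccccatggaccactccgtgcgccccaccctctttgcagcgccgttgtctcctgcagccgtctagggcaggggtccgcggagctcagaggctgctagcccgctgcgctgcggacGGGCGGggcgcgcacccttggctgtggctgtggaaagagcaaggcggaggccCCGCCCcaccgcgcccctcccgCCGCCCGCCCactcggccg
The table held 33 promoters of 31 of the 38 members. Of the 33, 10 lay outside every annotated gene. The rest overlapped an annotated gene, such as the collagen gene itself for Col5a1 and Col6a6. The GC box lay in 19 of the 33, against 32.7% of all 32851 promoters of the same length, the NF-Y box in 11, against 33.8%, and the first motif in 4, against 12.4%. The T-box half-site AGGTGTGA, searched on both strands, was found in 0 of the 33 and in 1.12% of all promoters. Such matches describe letters and are no sign of binding or of where a gene starts. The TATAAA of Col3a1 lies 117 to 112 bases before its annotated start.

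Nearly every collagen outside cartilage read slightly lower in the mutants, and no single one passed the test. Of the 38 members, 37 had a log2 difference below 0, whereas 50.9% of all genes did, and the exception was Col4a6. The median difference was -0.11, against -0.00210 over all genes. With limma, a linear model fitted to all 21789 probe sets with 1 gene symbol, 0 members had a Benjamini-Hochberg adjusted p under 0.05, where 0.00918% of all probe sets did (2 of 21789). At an unadjusted limma p under 0.05 there were 5 members, all lower: Col15a1, Col8a2, Col5a1, Col27a1 and Col6a6. That is 13.2% of the members, against 3.11% of all genes lower at that p. The count rests on single embryos: it was 2 without mutant 3, mutant 5, control 1 or control 4, 3 without control 2, 8 without mutant 4 and 9 without control 3. The members share their embryos, so the 38 values are not independent and their count carries no test. The signal of every member exceeded 4.36, the highest value of Y-linked probe sets in female embryos, on all 10 arrays. That floor rests on 3 Y-linked genes, and some members were dim. Both group means of Col10a1, Col28a1, Col19a1, Col6a4 and Col4a3 lay below 6.19, the lowest array median over all probe sets.

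**Figure D1:**
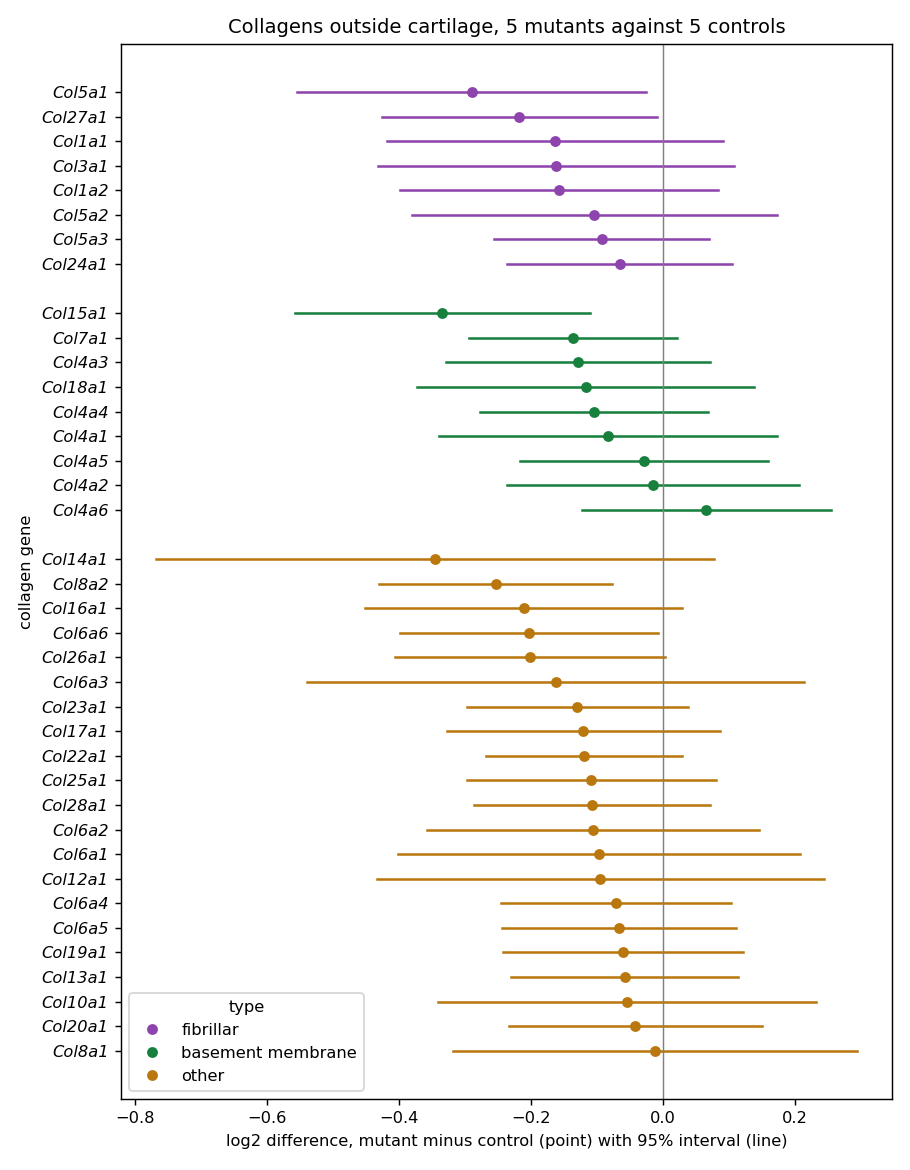
Log2 difference of each of the 38 collagens, mutant minus control (x axis), with its 95% interval from limma (lines), in the order of the differences within each type (y axis). Of the 38 points 37 lie left of 0, and the intervals of 5 genes exclude 0.

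The groups overlapped in each of the 38 members, where 0.552% of all genes lay lower without overlap. The range (highest minus lowest) of the 5 mutants was wider than the group difference for all 38, and that of the 5 controls for 37, the exception being Col8a2. This was not counted over all genes, so it does not set the members apart. Mutants and controls of the same replicate number were taken as pairs, although the labels do not state a pairing. The mutant was the lower of the pair in all 5 pairs for 7 members (18.4%, against 4.88% of all genes), in 4 pairs for 14 and in 3 pairs for another 14. With the replicate number as a block in the fit, 9 members stood at an unadjusted limma p under 0.05 and lower (23.7%, against 3.72% of all genes). In that fit also 0 passed after adjustment over all probe sets, and the smallest adjusted p of a member was 0.317, that of Col15a1.

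Tbx1 itself averaged 7.83 ± 0.36 in mutants and 8.71 ± 0.31 in controls (SD, n = 5 each), a log2 difference of -0.88 (limma adjusted p 0.451). It was lower in the mutant of all 5 pairs. In such mixed tissue, fewer cells of a type and less RNA per cell cannot be told apart.

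All 8 fibrillar collagens had a difference below 0, with a median of -0.16, and none passed. The main chains of connective tissue fibrils, Col1a1, Col1a2 and Col3a1, had nearly the same difference. Col5a1, which starts and limits fibril growth, was the furthest from 0 of the 8. Without control 4 the median of the 8 was -0.07.

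Col1a1, the more abundant chain of type I collagen, gave 12.23, 12.33, 12.13, 12.67 and 12.28 in mutants 1 to 5 and 12.43, 12.52, 12.12, 12.81 and 12.57 in controls 1 to 5. Number 4 was the highest and number 3 the lowest in both groups, and the groups overlapped over nearly their whole range. The log2 difference was -0.16 (SE 0.12, 95% interval -0.42 to 0.09), which is 89.3% of the control signal, with a limma adjusted p of 0.729 and an exact permutation p of 0.294. Col1a2, its partner chain, gave 12.18, 12.26, 12.13, 12.46 and 12.02 in the mutants and 12.23, 12.45, 12.004, 12.67 and 12.47 in the controls. Its difference was also -0.16 (SE 0.11, limma adjusted p 0.726). Without control 4 both differences were -0.08, and without control 3 they were -0.26 and -0.25.

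Col3a1, the collagen of fine reticular fibrils, gave 11.85, 12.01, 11.86, 12.18 and 11.66 in the mutants and 12.001, 12.08, 11.69, 12.48 and 12.11 in the controls. The lowest mutant, number 5, lay just below the lowest control, number 3, and the other mutants lay within the control range. The difference was -0.16 (SE 0.12, limma adjusted p 0.745), and -0.06 without control 4. Col5a2, which neighbours Col3a1 on chromosome 1 with no other protein-coding gene of the RefSeq table between them, had a difference of -0.10 (SE 0.13).

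Col5a1 gave 9.19, 9.46, 9.10, 9.57 and 8.98 in the mutants and 9.54, 9.60, 9.24, 9.83 and 9.54 in the controls. Mutants 1, 3 and 5 lay below every control, and the mutant was the lower in all 5 pairs. The difference was -0.29 (SE 0.12, 95% interval -0.55 to -0.02, 81.8% of control), with an exact permutation p of 0.0635 and a limma adjusted p of 0.595. It ranged from -0.37 without mutant 4 to -0.22 without mutant 5.

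Col27a1, a fibrillar collagen also found in cartilage, gave 7.80, 7.65, 7.63, 7.61 and 7.31 in the mutants and 7.81, 7.94, 7.88, 7.86 and 7.58 in the controls. All 5 mutants lay below the control mean of 7.82, and 1 lay below the lowest control. The difference was -0.22 (SE 0.10, exact permutation p 0.0635, limma adjusted p 0.602), and -0.14 without mutant 5. The remaining fibrillar genes, Col5a3 (-0.09) and Col24a1 (-0.07), had SEs of 0.08.

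**Figure D2:**
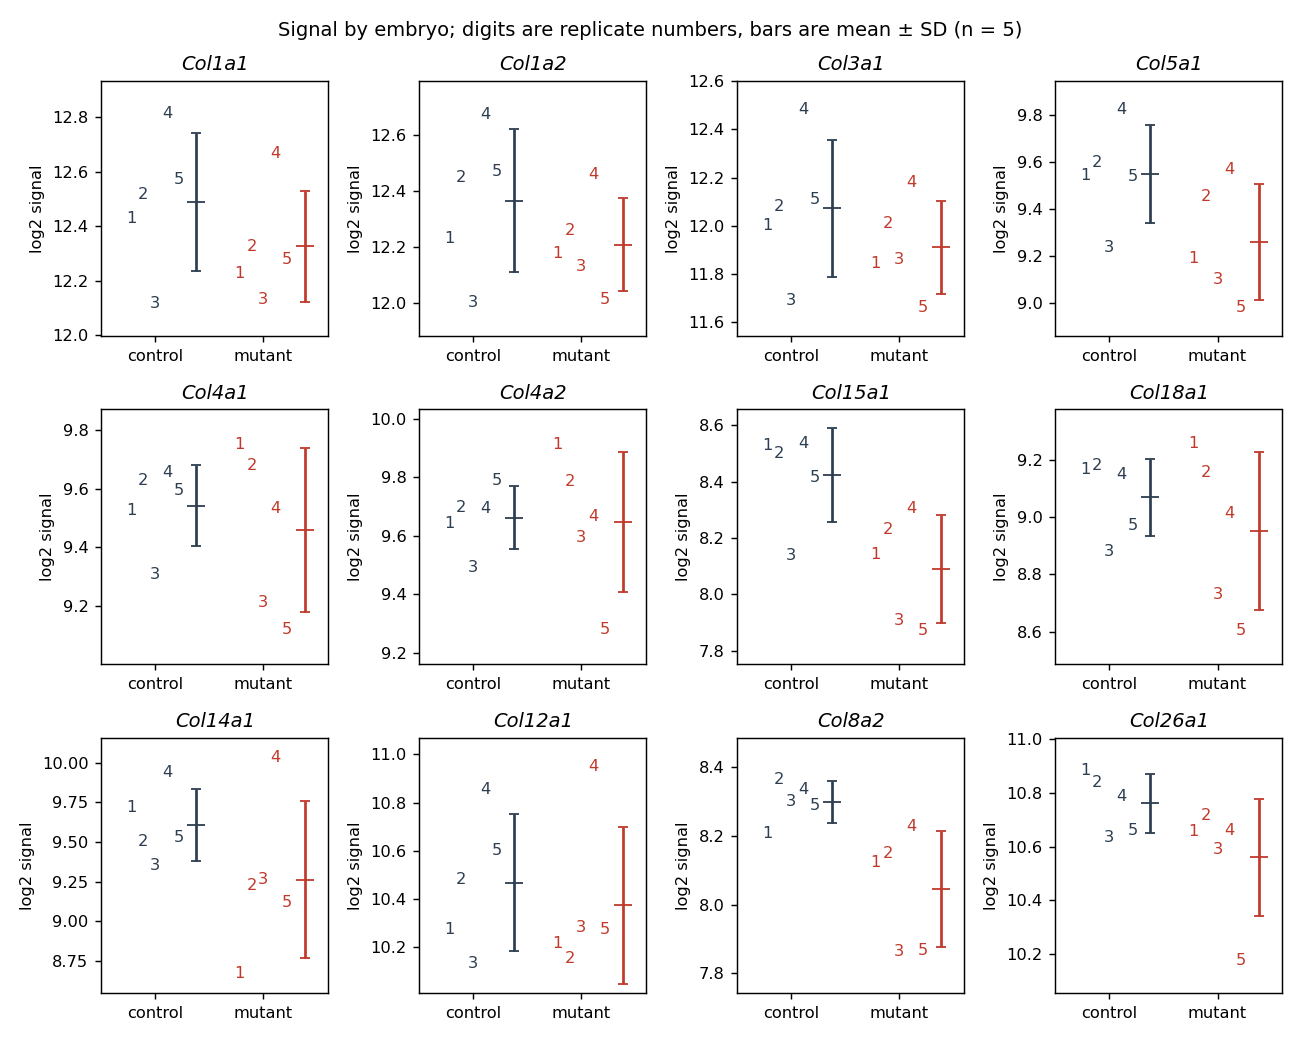
Log2 signal (y axis) of 12 collagens in each control and mutant embryo (x axis), with digits for the replicate number and bars for the mean ± SD (n = 5). Each panel has its own range, and the groups overlap in all 12, with 4 of 5 mutants below every control in Col8a2 and Col14a1.

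Of the 9 basement membrane collagens 8 had a difference below 0, and Col15a1 was the furthest from 0. The 6 type IV chains had a median of -0.06, and the 3 collagens of the basement membrane zone (Col7a1, Col15a1 and Col18a1) a median of -0.14. The median of all 9 was -0.10, and 0 of 9 passed. It was -0.03 without mutant 5 and -0.06 without mutant 3.

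Col4a1 and Col4a2 encode the chains of the type IV network found in every basement membrane. They lie head to head on chromosome 8, with 21 bases between their annotated starts. Col4a1 gave 9.75, 9.68, 9.21, 9.53 and 9.12 in the mutants and 9.53, 9.63, 9.31, 9.65 and 9.59 in the controls, a difference of -0.08 (SE 0.12, limma adjusted p 0.874). Col4a2 gave 9.91, 9.78, 9.59, 9.67 and 9.28 in the mutants and 9.64, 9.70, 9.49, 9.69 and 9.79 in the controls, a difference of -0.01 (95% interval -0.24 to 0.21, limma adjusted p 0.982). For each gene mutant 1 was the highest and mutant 5 the lowest of all 10 embryos. The mutants thus spread about the controls on both sides, and without mutant 5 both differences were above 0, at 0.00124 for Col4a1 and 0.08 for Col4a2.

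The chains of more restricted membranes gave small differences. Col4a3 and Col4a4, which also share a start region and are known from kidney and inner ear, had -0.13 (SE 0.09) and -0.10 (SE 0.08). The X-linked pair Col4a5 and Col4a6 had -0.03 and 0.07 (SE 0.09 each). Col4a6 averaged 6.42 ± 0.10 in mutants and 6.35 ± 0.16 in controls (SD, n = 5 each), and in 1 of the 5 pairs the mutant was the lower.

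Col15a1, a collagen at the outer face of basement membranes around vessels and muscle, had the smallest limma p of all 38 members (unadjusted 0.00669, adjusted 0.569). It gave 8.14, 8.23, 7.91, 8.30 and 7.87 in the mutants and 8.53, 8.50, 8.14, 8.54 and 8.41 in the controls. All mutants lay below 4 of the 5 controls, and control 3 alone reached into their range. The difference was -0.33 (SE 0.10, 95% interval -0.56 to -0.11, 79.3% of control), with an exact permutation p of 0.0317, where 0.00794 is the smallest that 5 against 5 allows. It was -0.30 over arrays 1 to 3 alone, -0.39 over arrays 4 and 5 alone, and between -0.41 and -0.28 when single arrays were left out.

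Col18a1, the source of the fragment endostatin, gave 9.25, 9.16, 8.73, 9.01 and 8.61 in the mutants and 9.17, 9.18, 8.88, 9.15 and 8.97 in the controls. Its difference of -0.12 (SE 0.12, limma adjusted p 0.811) was -0.03 without mutant 5, whose value was the lowest of the 10. Col7a1, the anchoring fibril collagen of skin, had a tighter spread, at 7.17 ± 0.09 against 7.30 ± 0.10 (SD, n = 5 each), and a difference of -0.14 (SE 0.07, exact permutation p 0.0635, limma adjusted p 0.663). Mutants 2, 4 and 5 lay below every control.

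The 21 other collagens all had differences below 0, with a median of -0.11, and none passed. The network collagen Col8a2, the surface collagen Col14a1 and the filament chain Col6a6 were the members for which 4 of the 5 mutants lay below every control.

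Col8a2, a short-chain collagen of the eye and of vessel walls, gave 8.12, 8.15, 7.86, 8.23 and 7.87 in the mutants and 8.21, 8.37, 8.30, 8.34 and 8.29 in the controls. Mutant 4 alone reached above the lowest control. The difference was -0.25 (SE 0.08, 95% interval -0.43 to -0.08, 83.9% of control), the exact permutation p was 0.0159 and the limma adjusted p 0.569. It was -0.25 over arrays 1 to 3 alone and -0.26 over arrays 4 and 5 alone. Its partner in type VIII collagen, Col8a1, had a difference of -0.01 (SE 0.14) that turned its sign when any of 5 single arrays was left out. Col10a1, also a short-chain collagen and a product of hypertrophic cartilage, gave 5.51, 5.31, 5.28, 4.70 and 5.14 in the mutants and 5.16, 5.23, 5.51, 5.16 and 5.13 in the controls, with no order between the groups (-0.05, SE 0.13).

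All 6 beaded filament chains of type VI had a difference below 0, with a median of -0.10, and none passed. Col6a1, Col6a2 and Col6a3, which form the common trimer, had -0.10 (SE 0.14), -0.11 (SE 0.12) and -0.16 (SE 0.17). Without mutant 5 Col6a1 was at 0.00884 and Col6a2 at -0.03, and without control 4 Col6a3 was at -0.03. Col6a6, a chain that can stand in for the last of these, gave 7.08, 7.10, 6.97, 7.36 and 6.99 in the mutants and 7.52, 7.24, 7.21, 7.33 and 7.23 in the controls, with mutant 4 alone inside the control range. Its difference was -0.20 (SE 0.09, exact permutation p 0.0635, limma adjusted p 0.602), and a second probe set of the gene gave -0.29 (SE 0.13). The other alternative chains, Col6a4 and Col6a5, lie beside Col6a6 on chromosome 9 and had -0.07 each (SE 0.08), and a second probe set of Col6a5 gave -0.03.

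Of the fibril-associated collagens, Col14a1, which binds fibrils in embryonic connective tissue, had the widest range of any member. It gave 8.67, 9.23, 9.26, 10.03 and 9.12 in the mutants and 9.72, 9.50, 9.35, 9.94 and 9.53 in the controls. Mutant 4 was the highest of the 10 embryos, and the other mutants lay below every control. The difference was -0.34 (SE 0.20, limma adjusted p 0.681), or -0.54 without mutant 4 and -0.20 without mutant 1. Col14a1 was named after its values were seen.

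Col12a1, a related surface collagen of tendon and bone sheaths, gave 10.21, 10.15, 10.28, 10.95 and 10.27 in the mutants and 10.27, 10.48, 10.13, 10.85 and 10.60 in the controls. Its difference was -0.09 (SE 0.16), and mutant 4 again stood highest. Col16a1 had -0.21 (SE 0.11) with the mutant lower in all 5 pairs. Col22a1, known from tissue junctions such as that of muscle and tendon, had -0.12 (SE 0.07), and Col19a1 and Col20a1 had -0.06 and -0.04.

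Col26a1, a secreted collagen, gave 10.66, 10.72, 10.59, 10.66 and 10.18 in the mutants and 10.88, 10.84, 10.63, 10.79 and 10.66 in the controls. The mutant was the lower in all 5 pairs, and mutant 5 stood well below the rest. The difference of -0.20 (SE 0.09, exact permutation p 0.0714, limma adjusted p 0.617) was -0.10 without mutant 5. The 4 transmembrane collagens lay between -0.13 and -0.06: Col23a1 (-0.13), Col17a1 of epithelial hemidesmosomes (-0.12), Col25a1 (-0.11) and Col13a1 (-0.06). Col28a1 had -0.11 (SE 0.08).

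Fibrillar collagens were averaged per embryo as the mean deviation of their log2 signals from the mean over the 10 arrays. Mutants 1 to 5 stood at -0.09, -0.03, -0.13, 0.12 and -0.26, and controls 1 to 5 at 0.05, 0.11, -0.14, 0.32 and 0.06. Number 4 was the highest of both groups, and the mutant was the lower in 4 of the 5 pairs. For basement membrane collagens the range was -0.22 to 0.11 in the mutants and -0.05 to 0.13 in the controls, and for the other types -0.23 to 0.08 and -0.03 to 0.21. Mutant 5 was the lowest mutant in 21 of the 38 members and mutant 4 the highest in 20. Among the controls number 3 was the lowest in 20 and number 4 the highest in 21.

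**Figure D3:**
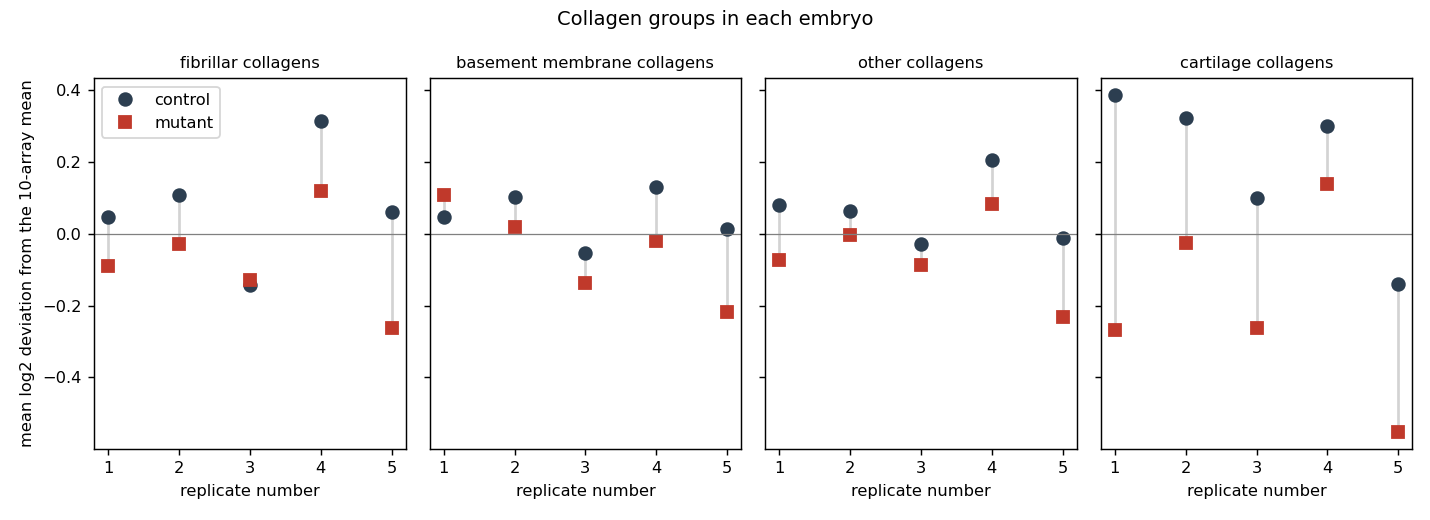
Mean log2 deviation from the 10-array mean (y axis) of the fibrillar, basement membrane and other collagens and of the 6 cartilage collagens, by replicate number (x axis), for controls (circles) and mutants (squares), with grey lines between equal numbers. Mutant 5 is the lowest of the 10 in each panel.

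Many collagens varied together from embryo to embryo, chains of 1 trimer among them. Correlations were taken over the 10 arrays after subtracting each group's mean, for 7 pairs of partner chains chosen after the data were seen. They are a description with no p, since arrays of equal number were taken as pairs and all genes share the arrays. Col6a1 and Col6a2 had r = 0.983 and rho = 0.964, Col1a1 and Col1a2 r = 0.928 and rho = 0.879, and Col4a1 and Col4a2 r = 0.913 and rho = 0.903. Col5a1 with Col5a2 had r = 0.910 and rho = 0.806, and Col6a1 with Col6a3 r = 0.836 and rho = 0.721. The X-linked Col4a5 and Col4a6 had r = 0.595 and rho = 0.673, and Col4a3 and Col4a4 r = 0.264 and rho = 0.176.

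Such values were also found outside the 7 chosen partner pairs, in a smaller share of the pairs. The remaining pairs still hold some chains of shared trimers, such as Col6a2 with Col6a3 and Col8a1 with Col8a2. Over the other 696 pairs of members r had a median of 0.321 and ran from -0.892 to 0.984. Of these 696 pairs 45 reached the 0.836 of Col6a1 with Col6a3, and of the 7 partner pairs 5 did. The partner pairs were chosen with the data seen, so the shares carry no test. The highest, 0.984, was that of Col8a1, a short-chain collagen, with the fibrillar Col24a1. Col1a1 with Col5a1, chains of different types, had r = 0.866, and Col3a1 with Col1a2 had r = 0.969. Pairs of genes other than the members were not read for comparison. Without the 2 arrays farthest from the median, r of the first 5 partner pairs lay between 0.829 and 0.976, and over arrays 1 to 3 (6 arrays) between 0.740 and 0.964. The 4 arrays of the other numbers are too few for a value.

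Arrays 1 to 3 stand apart from arrays 4 and 5 in both groups by immediate early genes, which cells switch on within minutes of a stimulus. Fos was at 8.82 to 9.08 in the former and at 5.49 to 5.91 in the latter. Over arrays 1 to 3 the median difference of the 38 members was -0.05, and 29 were below 0 (all genes: 47.8%). Over arrays 4 and 5 it was -0.21, and 36 were below 0 (all genes: 53%). The fibrillar medians were -0.07 and -0.28, those of the basement membrane group -0.03 and -0.22, and those of the other types -0.05 and -0.19. For the type IV chains they were 0.05 and -0.18. Whether the effect differs between these arrays was not tested, and arrays 4 and 5 hold 2 embryos a group, among them mutant 5. Without mutant 5, 31 of the 38 members were below 0, with a median of -0.08.

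Genes that mature collagen differed in both directions, and 0 of the 31 measured passed. The list covers hydroxylases, chaperones, procollagen proteases and cross-linking enzymes. Of the 31, 21 were lower and 10 higher, with a median of -0.08. At an unadjusted limma p under 0.05 there were 3 lower and 1 higher (all genes: 3.11% and 4.7%), and 2 lay lower and 0 higher without overlap (all genes: 0.552% and 1.27%).

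Crtap, the cartilage-associated protein that works with prolyl 3-hydroxylase on type I collagen, gave 9.54, 9.68, 9.49, 9.74 and 9.23 in the mutants and 9.83, 9.81, 9.77, 9.92 and 9.79 in the controls. All 5 mutants lay below all 5 controls, with a difference of -0.29 (SE 0.08, exact permutation p 0.00794, limma adjusted p 0.569). P3h1, its hydroxylase partner, had -0.16 (SE 0.10). Pcolce2, an enhancer of procollagen cleavage, gave 7.17, 7.04, 6.87, 6.82 and 6.58 in the mutants and 7.22, 7.27, 7.19, 7.30 and 7.20 in the controls. It also lay lower without overlap, at -0.34 (SE 0.10, exact permutation p 0.00794, limma adjusted p 0.569).

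The hydroxylases of chain residues lay on both sides of 0. P4ha1, the catalytic subunit of prolyl 4-hydroxylase and a hypoxia-responsive gene, gave 10.04, 10.09, 10.05, 10.08 and 9.67 in the mutants and 9.75, 9.83, 9.68, 9.50 and 9.38 in the controls. All but mutant 5 lay above every control, and the difference was 0.36 (SE 0.10, exact permutation p 0.0317, limma adjusted p 0.569). P4ha2 had 0.20 (SE 0.12). The lysyl hydroxylase Plod2 had -0.26 (SE 0.10), while its relatives Plod1 and Plod3 had 0.06 and -0.04. The collagen chaperone Serpinh1 had -0.11 (SE 0.09) and was the lower in the mutant of all 5 pairs, and the cross-linking enzyme Lox had 0.11 (SE 0.12).

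**Figure D4:**
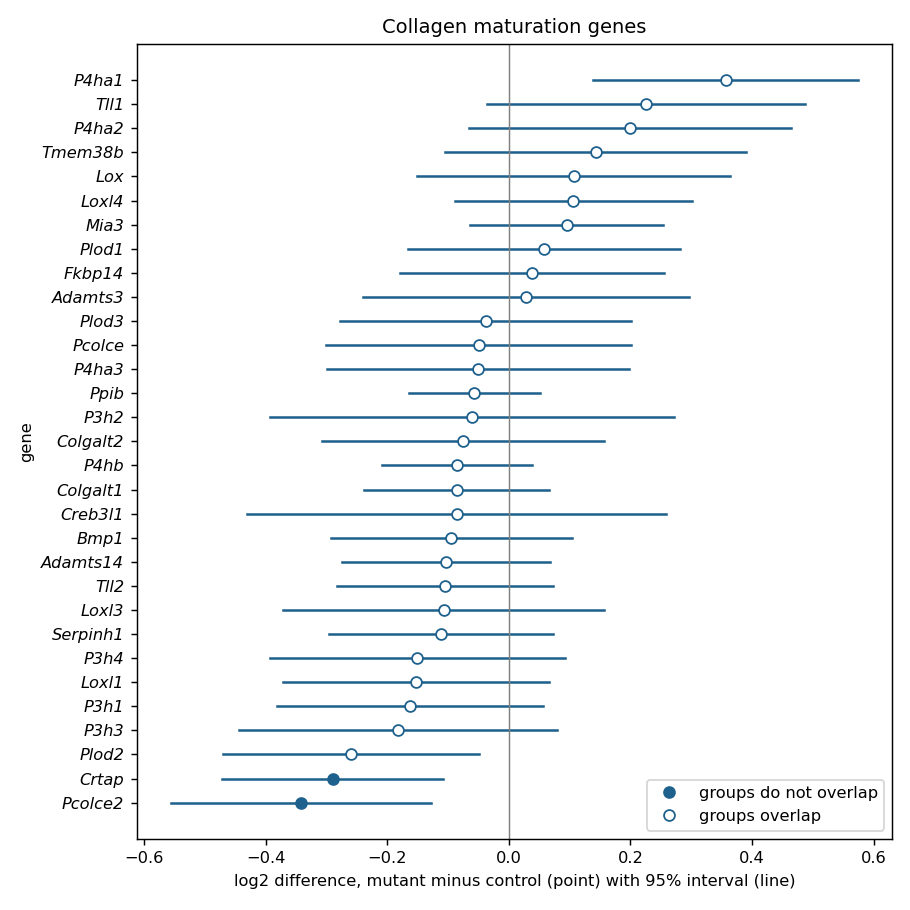
Log2 difference, mutant minus control (x axis), with 95% interval from limma, of the 31 measured collagen maturation genes (y axis). Filled points mark genes whose groups do not overlap, Crtap and Pcolce2, both left of 0. P4ha1 stands furthest to the right at 0.36.

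The partners of the basement membrane collagens and of the fibrils lay about 0 over all 10 arrays. Of 26 measured laminins, nidogens and other basement membrane genes, 15 were lower and 11 higher, with a median of -0.02 and 0 past the threshold. Over arrays 1 to 3 the median of these 26 was 0.03, with 10 lower (all genes: 47.8%). Over arrays 4 and 5 it was -0.09, with 22 lower (all genes: 53%). Among them Lamb2, a laminin chain, had -0.12, the matrix protein Smoc2 -0.16 and the integrin chain Itgb4 -0.11. The laminin chain Lamc1 and the cross-linker of type IV collagen Pxdn had 0.02 and -0.07. Of 30 measured fibril partners, collagen receptors and collagenases, 15 were lower and 15 higher, with a median of 0.01 and 0 past the threshold. The median of these 30 was 0.02 over arrays 1 to 3, with 14 lower, and -0.08 over arrays 4 and 5, with 18 lower. At an unadjusted limma p under 0.05 this list held 0 lower and 2 higher of 30, beside 3.11% lower and 4.7% higher of all genes, so its share is near the background. Kera, a keratan sulfate proteoglycan that spaces fibrils, had 0.54 (SE 0.17, limma adjusted p 0.569), at 0.86 over arrays 1 to 3 and 0.05 over arrays 4 and 5. Itga2, a collagen-binding integrin, had 0.19 (SE 0.08, limma adjusted p 0.602). Adgrg1, an adhesion receptor for type III collagen, had 0.41 (SE 0.29, limma adjusted p 0.725), and its highest value, 9.97, was that of mutant 5, without which the difference was 0.12. Fibronectin (Fn1) and decorin (Dcn), also products of connective tissue cells, had -0.01 and -0.02.

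The cartilage collagens, set beside the members, were all lower, from -0.53 for Col2a1 to -0.23 for Col11a2, with a median of -0.42. Without Col10a1 and Col27a1, 35 of the remaining 36 members were below 0. No test compares these sets here. The embryo means of the cartilage collagens ran from -0.55 to 0.14 in the mutants and from -0.14 to 0.39 in the controls.

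Marker lists of the tissues a dissection could hold were read the same way. For cartilage markers 5 of 5 were lower, with embryo means of -0.60 to 0.24 in the mutants and -0.19 to 0.45 in the controls. These markers are Acan, Sox9, Matn1, Col2a1 and Col9a1, and the last 2 repeat the cartilage collagens above. For muscle markers 4 of 4 were lower, with -0.52 to 0.34 and -0.15 to 0.37. Neuron markers were higher in 4 of 4 (-0.36 to 0.76 and -0.81 to 0.24), and neural tube markers in 4 of 4 (-0.54 to 2.37 and -0.83 to 0.74), with mutant 5, the embryo of lowest collagen signal, at 2.37. The neural tube marker En2 (0.07) was at -0.80 without mutant 5, and 3 mutants lay below every control. The neural tube markers Pax6, Sox2 and Gpm6a stayed above 0 without any single array. Endothelial markers were higher in 4 of 5 (-0.22 to 0.26 and -0.13 to 0.05). Periotic mesenchyme markers were lower in 4 of 5 (-0.25 to 0.11 and -0.07 to 0.09), and its marker Pou3f4 and the otic marker Oc90 were at 7.39 and 8.35 or more on every array. Of 4 bone markers listed 2 were measured and lower, Ibsp at -1.29 (SE 0.51) and Sp7 at -0.02 (SE 0.13). Lower in the remaining lists were 2 of 4 for pericytes, 2 of 2 for Schwann and neural crest cells and 3 of 4 for macrophages. So were 3 of 3 for red blood cells, 2 of 5 for otic epithelium, 1 of 3 for meninges and 2 of 4 for skin epithelium. None of these markers passed, and their part in the collagen differences was not tested.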

How the data were processed

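The deposited values are log2 signals. The submitters' processing notes name RMA and Affymetrix Expression Console 1.1. The log2 scale was read from the values, and no source used here names the probe file version. The table held 35557 probe sets, of which the platform annotation gave 21789 1 gene symbol, and gene ids matched 21698 of these to the RefSeq table of GRCm38.p6. Precision is limited by the number of arrays, which have no depth of reads. The comparison of mutants with controls used limma 3.58.1 (R 4.3.3; lmFit, then eBayes with trend, two-sided). P-values of the 21789 probe sets were adjusted together after Benjamini and Hochberg, with a threshold of 0.05 and intervals of 95%. Exact permutation tests over the 10 arrays were two-sided, used only for single genes, and take no account of the pairs. The script was first tested on simulated data with known changes.

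The genes named are Tbx1, members past the threshold, the 3 of smallest p and 2 of highest mean in each type, 7 fixed chains (Col1a1, Col1a2, Col3a1, Col4a1, Col4a2, Col18a1 and Col10a1) and, in each partner list, genes past the threshold and the 3 of smallest p. Further genes named in the text were chosen with their values in view. The members and lists were chosen with earlier results of these data known. Between arrays of the same number, deviations from their group mean had correlations of 0.122 to 0.247, each above 0.1, so the numbers were taken as pairs. Arrays of other numbers ran from -0.392 to 0.382, the highest being mutant 5 with control 4. Equal numbers always fall on the same side of the split into arrays 1 to 3 and arrays 4 and 5. These correlations therefore cannot tell pairs from that split, and the pairing is an assumption. The labels number biological replicates without saying what equal numbers have in common. The split into arrays 1 to 3 and arrays 4 and 5 comes from immediate early genes, not from the labels. Xist and 3 Y-linked genes gave the sex of each embryo (1 male mutant, 2 male controls). Alternatives were other eBayes settings, normalization, array weights, the replicate block, this split or sex in the fit, each side of it alone, a dim probe filter, averaged probe sets and leaving out each array.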

Additional observations from a re-analysis of the deposited data

Results flagged for a closer look

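Among 90 groups of 5 values (38 collagens, 6 cartilage collagens and Tbx1 in mutants and in controls), 4 held an embryo far from the other 4, where chance gives about 4. Control 3 was far below the others for Col4a5 (log2 signal 7.087) and far above them for Col10a1 (5.513). Mutant 4 was far above the other mutants for Col12a1 (10.95). Mutant 5 was far below the other mutants for Col26a1 (10.18).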

How the results depend on the processing

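Under all 21 alternatives 0 collagens and 0 genes of each of the 3 partner lists passed, and the smallest limma adjusted p of a member was 0.317, with the replicate block, which changed no call. The count of all probe sets past the threshold, 2, was 1 in the arrays numbered 1 to 3, 0 in those numbered 4 and 5, 1 with the filter on dim probe sets, and 2 without any single array. Of the 38 members, 26 were below 0 in every alternative, 11 changed sign in at least 1, and Col4a6 stayed above 0. The median of the fibrillar group ranged from -0.22 to -0.07 when single arrays were left out, that of the basement membrane group from -0.16 to -0.03 and that of the other types from -0.14 to -0.07. The basement membrane median was -0.22 in the arrays numbered 4 and 5. In the arrays numbered 1 to 3 the sign turned for Col5a2 (0.017), Col4a1 (0.059), Col4a2 (0.15), Col4a5 (0.047), Col6a5 (0.028), Col20a1 (0.00108), Col10a1 (0.062) and Col13a1 (0.023), and in those numbered 4 and 5 for Col8a1 (0.12). Array weights turned Col4a2 (0.025) and Col8a1 (0.018), and sex in the fit turned Col4a2 (0.022). Leaving out single arrays also gave both signs for Col4a1 (-0.16 to 0.00124), Col4a2 (-0.081 to 0.077), Col4a5 (-0.094 to 0.013), Col6a1 (-0.20 to 0.00884), Col12a1 (-0.24 to 0.00203), Col20a1 (-0.12 to 0.00989), Col8a1 (-0.14 to 0.061) and Col10a1 (-0.13 to 0.067). The cause was not tested. With 5 arrays a group the standard errors of the members lay between 0.07 and 0.20.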
